A study of Homo sapiens with 14 samples.

Results

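Binding of the progesterone receptor (PR) and of POLR3A, which forms part of the catalytic core of RNA polymerase III, was examined at 8 growth factor receptor and adaptor genes: EGFR, ERBB2, ERBB3, ERBB4, IGF1R, INSR, IRS1 and IRS2. They were chosen from a list of 19821 protein-coding genes as receptors and adaptors that cross-talk with PR in breast cancer. No binding value was used for the choice, but earlier results of these data were known. Every deposited region that reached the RefSeq span of a gene or the 50 kb on either side, by at least 1 bp, was counted for that gene. The 8 windows cover 2820 kb together. They held 75 of 38933 PR regions after vehicle, 187 of 111515 PR regions after progesterone, 54 of 29161 POLR3A regions under vehicle and 95 of 47904 POLR3A regions under progesterone.

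Chromatin immunoprecipitation followed by sequencing had been done in T47D, a human breast cancer line positive for the oestrogen receptor and for PR. The cells of all groups were kept in serum and insulin, the latter a ligand of INSR, and were given either ethanol, as vehicle, or progesterone (P4) for 1 h. The labels give no dose of P4. There were 14 libraries in all, 3 replicates per antibody and treatment plus 1 pooled input for ethanol and 1 for P4, and the values used were 4 lists of regions, 1 per antibody and treatment. The replicates of a group share 1 list, so no difference below could be set against the spread between replicates, and no test between treatments was made. The depth of the libraries is unknown. No expression values were used here, so the identity of the line was not checked against its markers.

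The ERBB family consists of EGFR, ERBB2, ERBB3 and ERBB4, tyrosine kinase receptors at the cell surface that pair with each other when epidermal growth factor or neuregulin ligands bind. ERBB2 has no known ligand of its own and serves as the partner of the others, and its amplification defines a class of breast cancer. ERBB3 has little kinase activity and passes the signal to phosphatidylinositol 3-kinase. IGF1R and INSR are the related receptors for insulin-like growth factors and for insulin, and IRS1 and IRS2 are the adaptor proteins that these receptors phosphorylate. Progestins are known to act together with growth factors in breast cells, and PR itself is phosphorylated by kinases below these receptors.

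Among the 7 members with a promoter entry in the RefSeq table of GRCh38.p14 (250 bases before to 50 after a gene start), a region lay over that window at 1 gene in 1 list, IRS2 in the PR P4 list. Over 15812 protein-coding genes with an entry, 27.3% had a PR P4 region there, against 9.06% for PR vehicle, 20.4% for POLR3A vehicle and 19% for POLR3A P4. The 250 bases before the starts of IRS2 and EGFR are shown because, of these 7, they had a PR region closest to the start, over it at IRS2 and just inside the gene at EGFR. Capitals mark the 140 bases of IRS2 that lay under the PR P4 region, and no base of the EGFR stretch lay under a region. Both are given 5' to 3' on the strand of the gene, IRS2 from chr13:109786584-109786833 on the minus strand and EGFR from chr7:55018767-55019016 on the plus strand.
IRS2: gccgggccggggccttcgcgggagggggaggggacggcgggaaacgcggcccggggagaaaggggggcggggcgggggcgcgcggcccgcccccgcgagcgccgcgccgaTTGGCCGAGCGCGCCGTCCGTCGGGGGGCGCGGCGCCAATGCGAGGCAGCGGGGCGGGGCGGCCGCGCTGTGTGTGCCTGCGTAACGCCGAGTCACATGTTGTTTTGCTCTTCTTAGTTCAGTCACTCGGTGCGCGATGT
EGFR: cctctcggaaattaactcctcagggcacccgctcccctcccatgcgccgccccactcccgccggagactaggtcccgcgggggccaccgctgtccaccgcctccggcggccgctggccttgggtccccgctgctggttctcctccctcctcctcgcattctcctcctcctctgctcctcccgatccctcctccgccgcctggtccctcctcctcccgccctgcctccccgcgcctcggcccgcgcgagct
Both stretches are rich in G and C, with 76.4% at IRS2 and 73.6% at EGFR. Over the full promoter windows the values were 75.7% and 75.3%, against a median of 62.3% for all windows. IGF1R (79.7%), IRS1 (79.3%) and INSR (78.3%) were higher, with no region over the window. ERBB2 (60.7%), ERBB4 (59%) and a second EGFR start inside the gene (42%) were lower.

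The windows around the gene starts were searched on both strands for letters that PR and neighbouring factors are known to bind. The full hormone response element, AGAACA and TGTTCT with 3 bases of any kind between them, was in none of 22132 promoter windows. Its relaxed form, AGNACA and TGTNCT at the same spacing, was in 4 of them and in none of the members'. The single hormone element TGTTCT, which is also the right arm of the full element, was in 11.7% of all windows and in 3 of the members' 8 windows: at ERBB4, 170 bases before the start, at ERBB2, across the start, and at an internal EGFR start. The AP-1 letters TGANTCA were in 6.15% of all windows and in those of ERBB2 and of the internal EGFR start. The forkhead letters TGTTTAC (2.85% of windows), the oestrogen response element of GGTCA and TGACC with 3 bases between them (8 windows) and the RNA polymerase III B box, GGTTCGA followed by 2 bases of any kind and CC (0.176%), were in no member's window. None of the 7 sets of letters was in the IRS2 window or in that of the main EGFR start, and these matches describe letters and not binding.

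Under vehicle 7 of the 8 genes had a PR region in their window, against 74.6% of all protein-coding genes, and under P4 all 8 did, against 90.5%. For POLR3A the counts were 7 of 8 under vehicle (68.7% of all genes) and 8 of 8 under P4 (71.9%). The median window of all protein-coding genes was 124 kb, and every member but ERBB3 had a longer one. A longer window has more room for a region, and these shares are not corrected for that. The counts ranged widely between the genes. IGF1R held 36 of the 75 PR regions of the vehicle list and 82 of the 187 of the P4 list, and ERBB3 held 20 and 41. At the other end, INSR had 1 PR region under vehicle and 6 under P4, and IRS1 had 0 and 3.

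**Figure D1:**
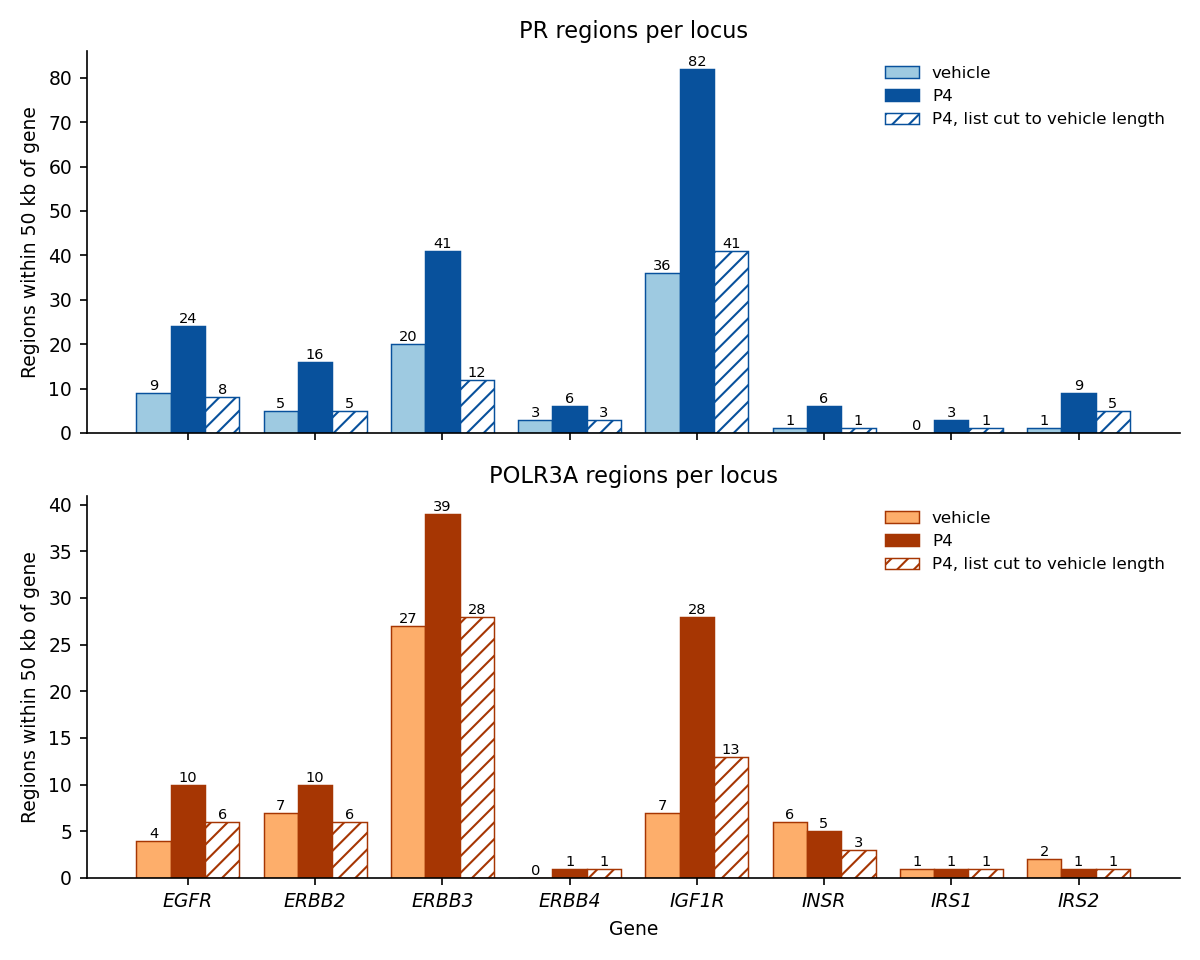
Number of regions within 50 kb of each gene (y axis) for PR (top) and POLR3A (bottom), with vehicle in light bars, P4 in dark bars and the P4 list cut to the length of the vehicle list in hatched bars. IGF1R (82 PR regions under P4) and ERBB3 (39 POLR3A regions under P4) stand highest, and most hatched bars come down to near the vehicle bars.

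PR had more regions under P4 than under vehicle at 8 of 8 genes, and so did 87.2% of all protein-coding genes, with 0.762% having fewer. The PR list itself was longer under P4, with 111515 regions against 38933. When the P4 list was cut to the length of the vehicle list by −log10 q-value, the 8 windows held 76 PR regions under P4 against 75 under vehicle. IGF1R then had 41 against 36, IRS2 had 5 against 1 and IRS1 had 1 against 0. ERBB3 had 12 against 20 and EGFR had 8 against 9, while ERBB2, ERBB4 and INSR had equal counts. Over all genes 36.5% had more and 30.9% fewer in the lists of equal length.

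POLR3A had more regions under P4 at 5 of 8 genes (51.3% of all genes), fewer at INSR and IRS2 (16.2% of all genes had fewer) and 1 in each list at IRS1. Of the 41 regions by which the totals of 54 and 95 differed, 21 were at IGF1R, which had 7 under vehicle and 28 under P4, and 12 were at ERBB3, with 27 and 39. In lists of equal length the totals were 54 and 59. IGF1R had 7 and 13, EGFR 4 and 6, ERBB3 27 and 28, and ERBB4 0 and 1. ERBB2, INSR and IRS2 had fewer, with 6 against 7, 3 against 6 and 1 against 2. In that form 26% of all genes had more and 36.2% fewer.

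The windows differ in length, so the counts were also taken per 100 kb and placed among all protein-coding genes, ties taking the middle rank. Over all genes the median was 1.51 PR regions per 100 kb under vehicle and 5.28 under P4, and for the 8 members it was 1.91 and 7.46. For POLR3A it was 0.971 and 1.72 over all genes and 1.59 and 2.59 for the members. ERBB3 was the densest of the members in each list, with 16.2 and 33.2 PR regions and 21.9 and 31.6 POLR3A regions per 100 kb, which put it between the percentiles 98.5 and 99.7. IGF1R followed for PR with 8.65 and 19.7 per 100 kb (percentiles 94.0 and 90.0). IRS1 was lowest for PR under vehicle, with 0 (12.7), and ERBB4 under P4, with 0.475 per 100 kb (10.9).

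**Figure D2:**
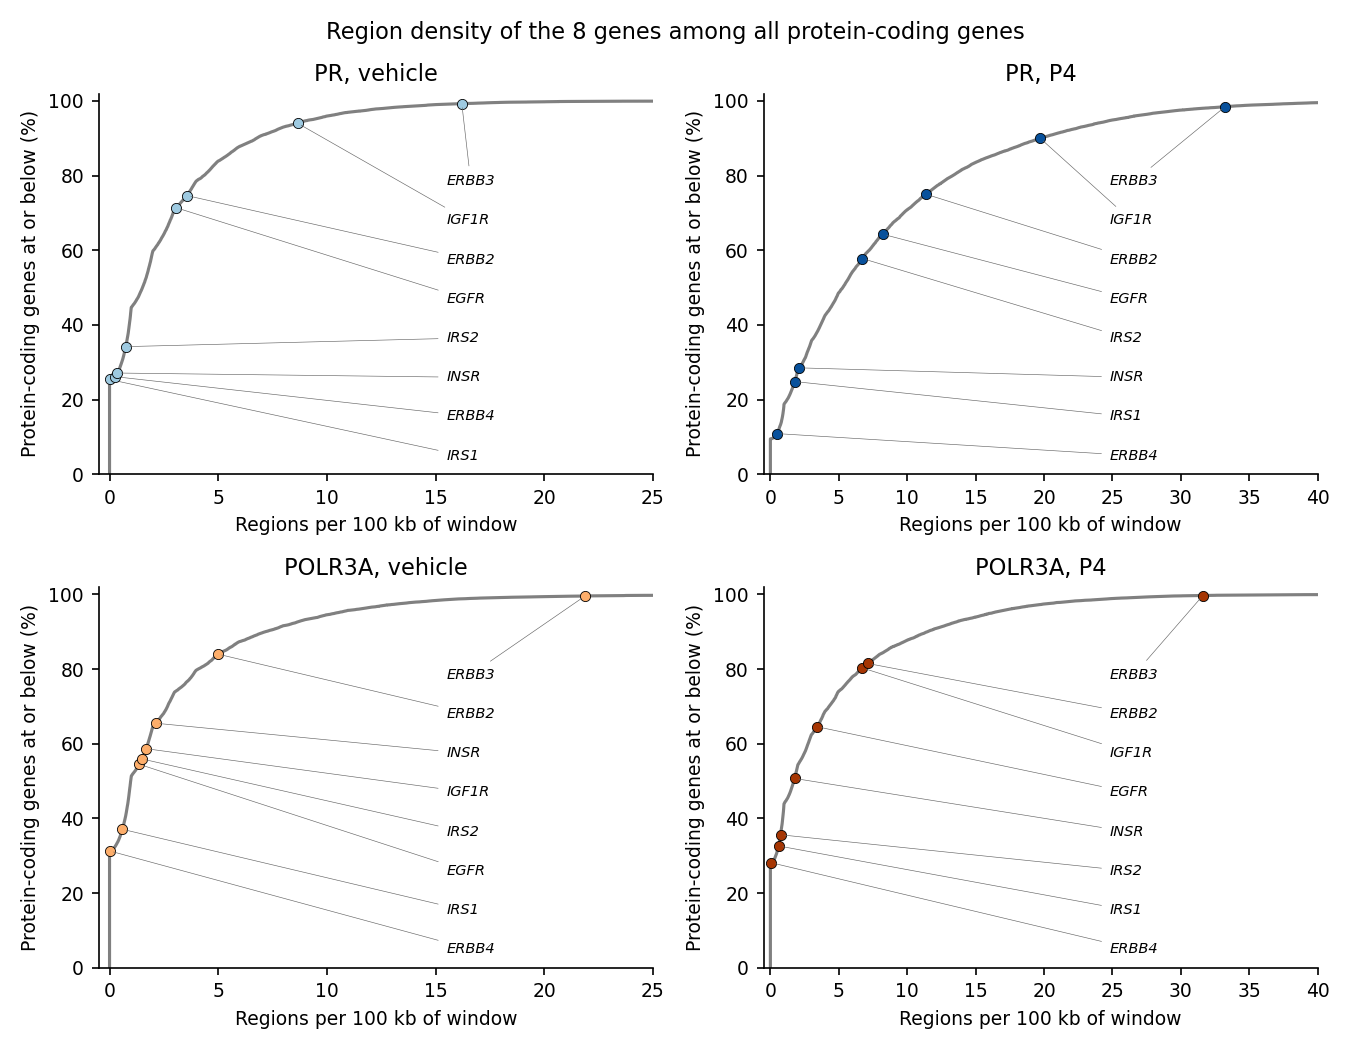
Share of all protein-coding genes at or below a density (y axis, %) against regions per 100 kb of window (x axis), in 1 panel per list, with the 8 genes as points on the curve. ERBB3 lies near the top of each curve and ERBB4 and IRS1 near the bottom of both PR curves.

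A high density did not always come with a strong region. Each region carries a fold enrichment and a −log10 q-value, both the authors' own, which were used only to describe and rank regions within a list. ERBB4, the neuregulin receptor with 6 PR regions in a window of 1263 kb, had the strongest PR region of all members in both lists. By the highest −log10 q-value in the window, it lay at percentile 98.1 of all genes under vehicle and 98.3 under P4. IGF1R came next (93.1 and 97.3), then EGFR (88.8 and 85.4), while ERBB3 was at 70.0 and 79.8 and INSR at 35.0 and 20.2. A long window gives more chances of a strong region, and this percentile is not corrected for that.

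EGFR, the receptor for epidermal growth factor, spans chr7:55019017-55211628 and had no other protein-coding gene in its window. Its strongest PR region lay just inside the gene in both lists, at chr7:55019358-55019711 under vehicle with a fold of 14.4 and a −log10 q of 92.5, and at chr7:55019343-55019721 under P4 with 24.1 and 183.1. The P4 summit was 512 bp from the gene start, and the region ranked 2099 in its list. This was the only member whose strongest PR region was within 1 kb of its start. The next P4 regions were 8.07 kb into the gene (fold 14.5) and 159 kb into it (12.7), and both had a vehicle region. POLR3A lay over PR at 7 of its 10 P4 regions, 70% with a 95% Wilson interval from 39.7 to 89.2, which includes the 50.5% of the whole list. Regions chained by overlap across the lists were joined into sites, and 4 sites were in both PR lists and in the POLR3A P4 list but not in the POLR3A vehicle list. The strongest POLR3A regions were near the far end under P4, at chr7:55204152-55204990 (fold 4.56, −log10 q 8.74), and at chr7:55167314-55167540 under vehicle (3.94, 7.09).

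ERBB2, at chr17:39688094-39728658, lies in a dense cluster with 7 other protein-coding genes in its window. Its strongest PR region was 20.4 kb before the gene, at chr17:39667475-39667872 under vehicle (fold 12.1, −log10 q 50.7) and at chr17:39667445-39667874 under P4 (19.6, 93.0). That region was closer to PNMT, a gene of adrenaline synthesis, at 330 bp. A second P4 region, at chr17:39675145-39676542 (10.6, 35.0), was within PGAP3 and was 1 of 2 sites of this window present in all 4 lists. The other such site was inside ERBB2 itself, where the PR P4 region chr17:39703437-39703694 had a fold of 5.25 and a −log10 q of 11.9. It reached all 4 lists by chaining, since no PR region of it touched the POLR3A vehicle region. Near the start, a PR P4 region ended 173 bp before the promoter window and a POLR3A P4 region began 39 bp after it, and the nearest vehicle regions were 11.2 kb and 11.5 kb away. The summit of that PR P4 region lay within PGAP3, and a POLR3A P4 region lay over the PGAP3 promoter window, which overlaps that of ERBB2. The strongest POLR3A region was at MIEN1 under P4, at chr17:39729769-39730185 (5.09, 7.73), and inside ERBB2 under vehicle, at chr17:39705832-39706276 (4.00, 4.01).

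ERBB3, at chr12:56080108-56103505, is the kinase-poor partner of ERBB2, and its window of 123 kb holds 8 other protein-coding genes. Its strongest PR region was inside the gene, at chr12:56081915-56082537 under vehicle (fold 7.12, −log10 q 23.8) and at chr12:56081854-56082649 under P4 (21.2, 136.7), 2.05 kb from the end with the lower coordinate. The strand of ERBB3 was not in the tables used here. Sites joined over the lists numbered 57, and 11 of them were in all 4 lists, among them 1 over the lower-coordinate end of the gene, chr12:56079062-56080408. Of the 20 PR regions under vehicle 12 were closest to another protein-coding gene, and of the 41 under P4, 27 were. Of the 27 POLR3A regions under vehicle 20 were closest to another gene, and of the 39 under P4, 26 were. The strongest POLR3A region of all members was there under vehicle, chr12:56117491-56119690 (7.84, 21.2), beside RPL41 and ZC3H10, and under P4 it was chr12:56041942-56042318 (5.51, 11.1) at RPS26. RPL41 and RPS26 encode ribosomal proteins. The promoter windows of RPS26, RPL41, ZC3H10 and LOC124902942 were covered in all 4 lists. The counts of this window therefore include regions at neighbouring genes.

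ERBB4, at chr2:211375717-212538802 on the minus strand, is a gene of 1163 kb with no other protein-coding gene in its window. The PR region chr2:211396720-211397242 had a fold of 42.4 and a −log10 q of 271.6 under vehicle, where it ranked 226, and chr2:211396759-211397239 had 59.2 and 403.9 under P4, rank 178 of 111515. The site lay within the gene 1142 kb from its start and 21.3 kb from its far end. The only POLR3A region of the locus, chr2:211396884-211397074 under P4 (4.48, 5.63), lay on it, and 9.55% of all genes likewise had POLR3A regions under P4 and none under vehicle. Of the 6 PR P4 regions 4 were within 32.9 kb of the far end, on either side of it. The others were 284 kb into the gene and 37.5 kb before its start. A 5S ribosomal RNA pseudogene, RNA5SP119, lies in ERBB4, and no POLR3A region was nearer to it than 138.6 kb. No tRNA gene of the gene table lies in any of the 8 windows.

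**Figure D3:**
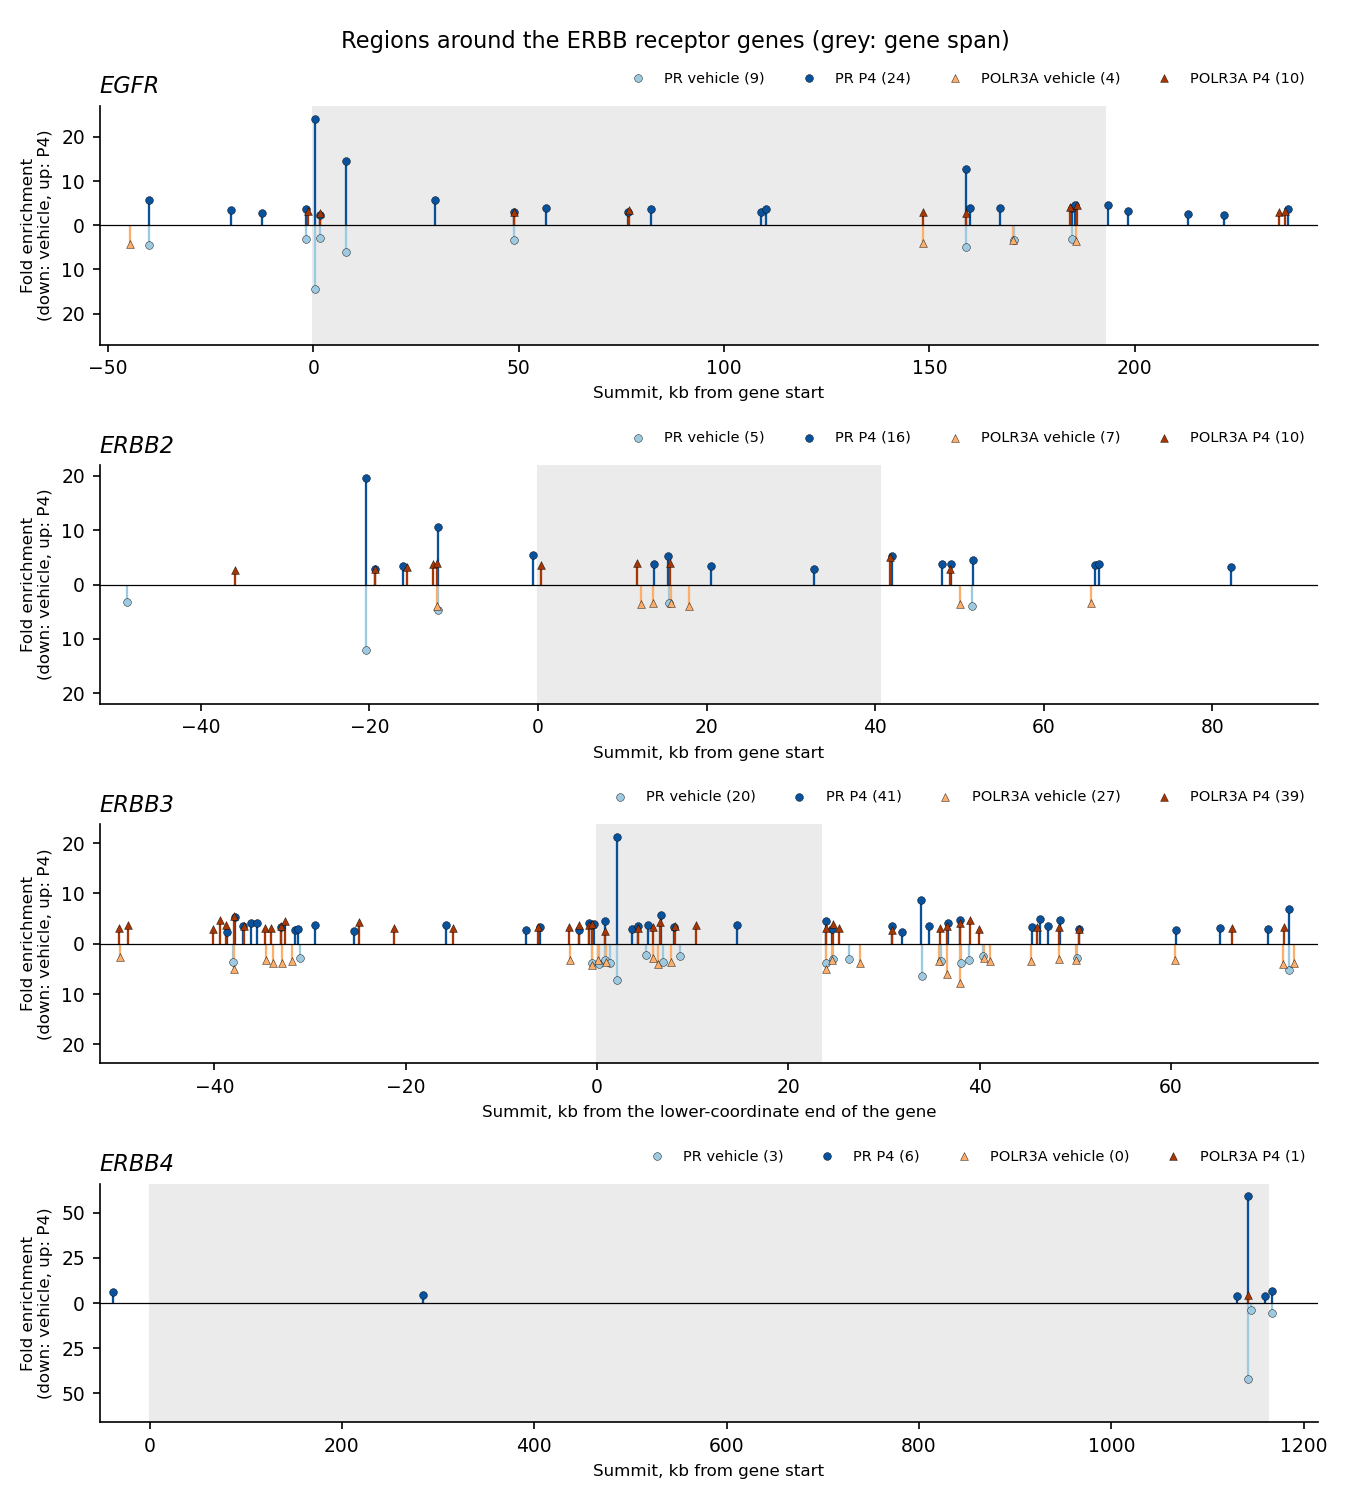
Fold enrichment of each region (y axis, P4 upwards and vehicle downwards, the authors' values) against the distance of its summit from the gene start in kb (x axis; for ERBB3 from the lower-coordinate end), with the gene span in grey, PR as circles and POLR3A as triangles. EGFR has its tallest PR region at the start, and ERBB4 has 1 tall PR region near its far end, with a fold of 59.2 under P4.

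IGF1R, the receptor for insulin-like growth factors at chr15:98648539-98964530, carried the largest group of strong PR regions. Of its 82 PR regions under P4, 16 were in the top 10% of the list by −log10 q, out of 23 such regions at all members. The strongest was chr15:98865506-98866436 under P4 (fold 55.8, −log10 q 374.4, rank 296) and chr15:98865970-98866433 under vehicle (23.0, 143.0), 218 kb into the gene. The next were chr15:98872308-98873209 (39.0, 233.1), chr15:98914594-98914967 (33.4, 215.8), chr15:98856610-98856956 (31.1, 187.8) and chr15:98867946-98869034 (32.5, 182.0). These 5 lay within 58.0 kb, and all 10 of the strongest had a vehicle region. With the gene divided into 4 equal stretches from its start, 7 of these 10 were in the third, which held 20 PR regions under vehicle and 29 under P4. The stretch at the far end held 3 and 8. No region of any list lay over the IGF1R promoter window, and the nearest PR P4 region was 10.7 kb away.

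None of the 28 POLR3A P4 regions of IGF1R overlapped any of its 7 vehicle regions, where over the whole lists 25.8% of P4 regions had a vehicle region and 42.0% of vehicle regions a P4 region. Their median fold was 3.47 under vehicle and 3.36 under P4, near the list medians of 3.50 and 3.28. By −log10 q they were weaker than the lists, with medians of 2.93 against 3.53 under vehicle and 2.73 against 3.22 under P4. Of the 28, 12 overlapped a PR P4 region, 42.9% against 50.5% over the list, and the strongest, chr15:98865430-98866396 (fold 5.16, −log10 q 7.87), lay on the strongest PR region of the gene. Between 204.5 and 226.3 kb from the start there were 7 sites in both PR lists and the POLR3A P4 list but in no POLR3A vehicle region, where PR folds under P4 ran from 3.57 to 55.8 and POLR3A folds from 3.03 to 5.16. A further site there, at 206 kb, touched all 4 lists through chained regions. The strongest vehicle region was chr15:98846569-98846769 (4.52, 4.89).

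INSR, the insulin receptor at chr19:7112265-7294414 on the minus strand, had no region in the top 10% of any list. Its single PR vehicle region, chr19:7197212-7197455 (fold 3.91, −log10 q 4.24), was within the gene and belonged to a site present in all 4 lists. The strongest of 6 PR P4 regions was chr19:7115443-7115726 (4.61, 7.39), near the far end of the gene. POLR3A had 6 regions under vehicle, led by chr19:7331249-7331560 (3.84, 5.34), and 5 under P4, led by chr19:7069413-7069642 (4.13, 4.72) beside ZNF557. Taking the regions whose nearest protein-coding gene was INSR, the counts were 3 and 4.

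IRS1 and IRS2, the adaptors below both receptors, differed in their PR regions. IRS1, at chr2:226731312-226799820 on the minus strand, had no PR region in its window under vehicle, and 16.3% of all genes likewise had none under vehicle and at least 1 under P4. Under P4 it had chr2:226748768-226748981 (fold 5.03, −log10 q 8.92) and chr2:226739234-226739411 (3.99, 5.25) inside the gene, and a weak region with its summit 940 bp before the start (2.50, 1.73). Its POLR3A regions were 1 per list, chr2:226715427-226715717 under vehicle (5.58, 8.05) and chr2:226811416-226811615 under P4 (4.26, 4.95), and they were far apart. The summits of the weak PR region and of the POLR3A P4 region lay within the neighbouring gene RHBDD1.

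IRS2, at chr13:109752695-109786583 on the minus strand, had 1 PR region under vehicle and 9 under P4. The vehicle region, chr13:109743733-109744064 (fold 12.6, −log10 q 42.0), lay 8.80 kb beyond the far end of the gene, and the strongest P4 region was at the same place, chr13:109743724-109744068 (23.1, 112.8). The P4 region over the start, chr13:109786444-109786723 (6.92, 16.7), had its summit 14 bp before the start, in the stretch of capitals printed for IRS2. Of the other P4 regions, 4 were before the start, at 714 bp, 4.61 kb, 17.5 kb and 23.0 kb, with folds from 2.66 to 8.60. No PR vehicle region was nearer to the promoter window than 42.5 kb. The strongest POLR3A regions were chr13:109787327-109787543 under vehicle (4.52, 4.89) and chr13:109787172-109787384 under P4 (3.59, 3.17), both within 1 kb before the start and overlapping each other. Their summits, and that of the PR P4 region at 714 bp, lay within another protein-coding entry, LOC124903211.

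**Figure D4:**
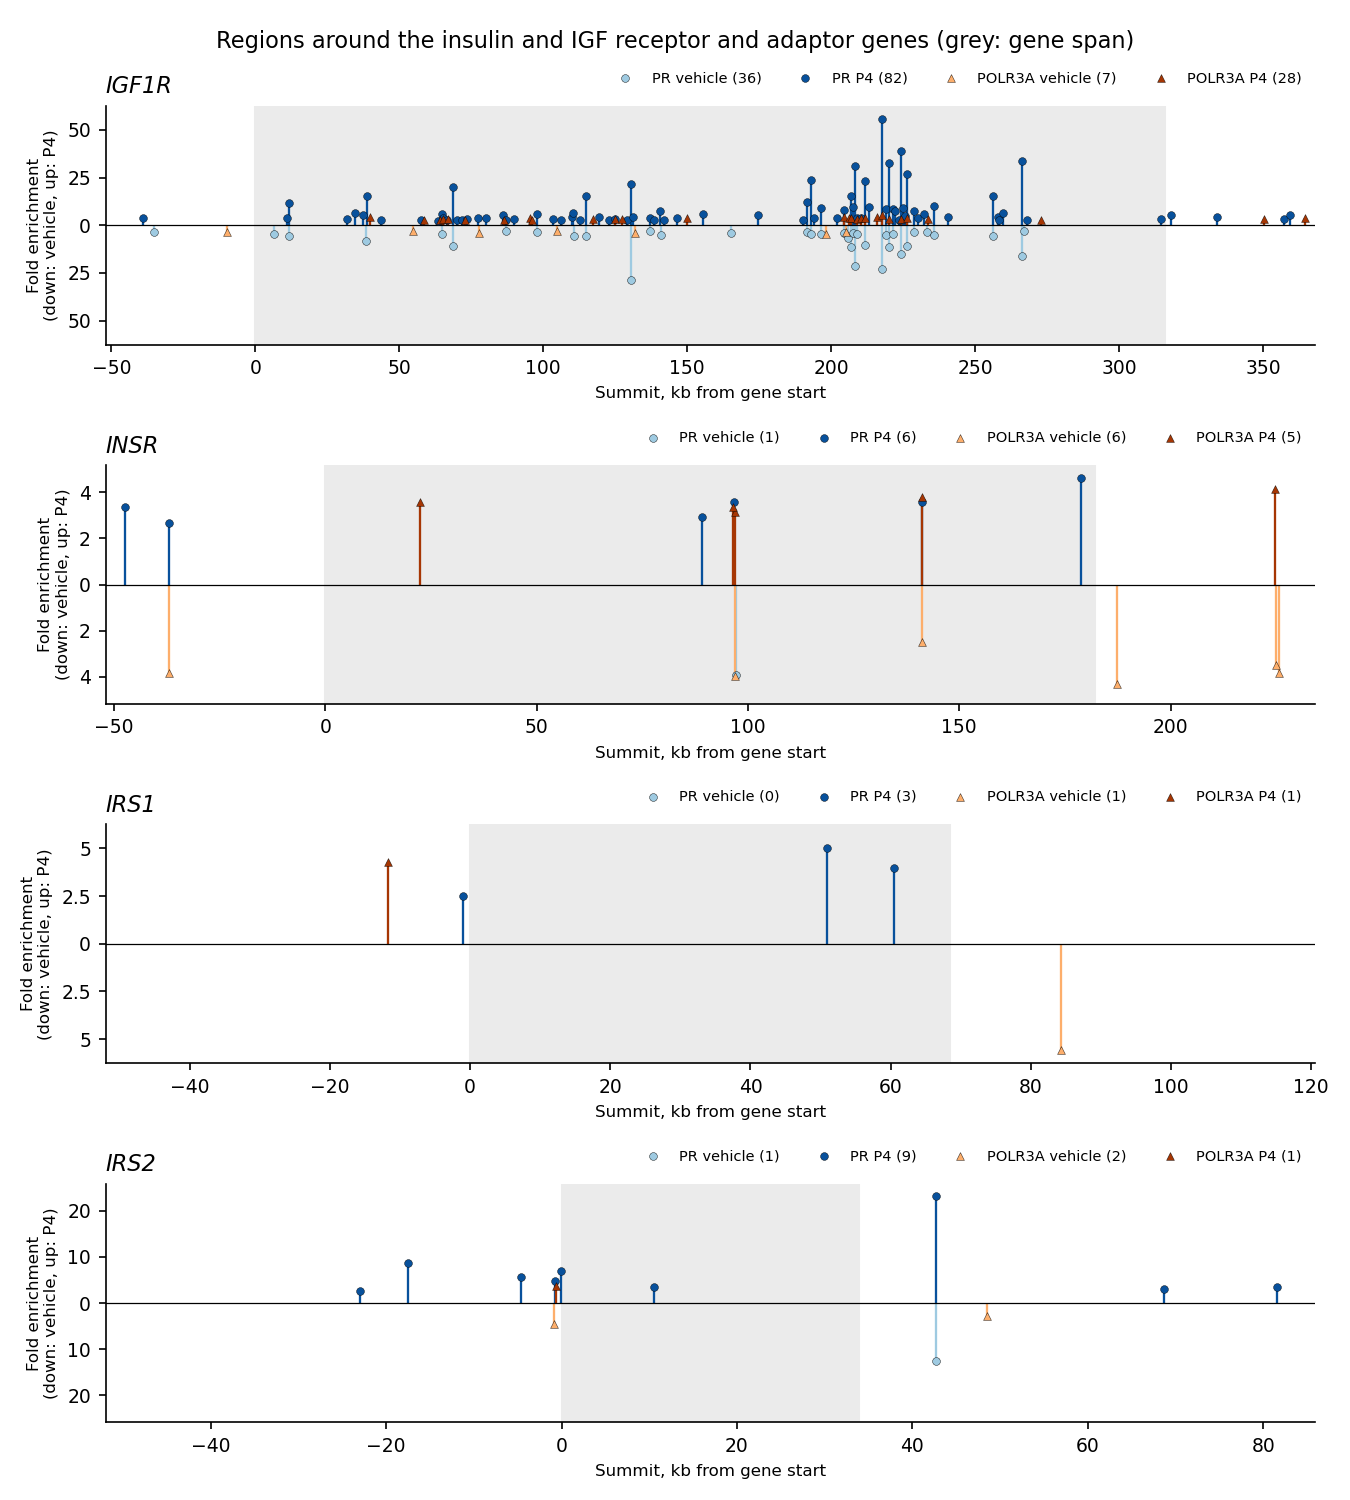
Fold enrichment of each region (y axis, P4 upwards and vehicle downwards, the authors' values) against the distance of its summit from the gene start in kb (x axis), with the gene span in grey, PR as circles and POLR3A as triangles. The tall PR regions of IGF1R, up to a fold of 55.8 under P4, crowd beyond the middle of the gene, and the y axis of INSR ends near 5.

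PR regions present under both treatments ranked higher in the P4 list than the others. At the 8 genes 61 of 187 PR P4 regions, 32.6% (95% Wilson interval 26.3 to 39.6), overlapped a vehicle region, against 25.8% over the whole list. IGF1R gave 31 of the 61. Without it the share was 30 of 105, 28.6% (20.8 to 37.8), an interval that includes the 25.8%. For all 8 genes the share was 61.8% in lists of equal length and 21.4% with a reciprocal overlap of at least 50%. The 61 overlapping regions had a median −log10 q of 23.5, and the 126 without a vehicle region had 4.59. Over the whole list the same medians were 23.6 and 3.98. All 23 PR P4 regions of the members in the top 10% of the list had a vehicle region, as did 95.6% of that class in the list. Conversely 64 of 75 PR vehicle regions, 85.3% (75.6 to 91.6), overlapped a P4 region, against 75.7% in the list. The strongest P4 region had a vehicle region at 6 of the 8 genes, the exceptions being INSR and IRS1. Their strongest P4 regions had a −log10 q of only 7.39 and 8.92. The same share over all protein-coding genes was not taken, so this count has no background.

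POLR3A regions recurred between treatments at 30 of 95 P4 regions, 31.6% (23.1 to 41.5), against 25.8% in the list. ERBB3 gave 21 of the 30, and without it the share was 9 of 56, 16.1% (8.69 to 27.8). IGF1R gave 0 of its 28, and without IGF1R the share was 30 of 67, 44.8% (33.5 to 56.6). Under vehicle 15 of 54 POLR3A regions, 27.8% (17.6 to 40.9), overlapped a PR vehicle region, against 32.3% in the list, and without ERBB3 3 of 27 did, 11.1% (3.85 to 28.1). Under P4 55 of 95, 57.9% (47.8 to 67.3), overlapped a PR P4 region, against 50.5% in the list, and without ERBB3 30 of 56 did. With the PR P4 list cut to the length of the POLR3A P4 list, 32 of the 95 did, 33.7%, and with the PR vehicle list cut to the length of the POLR3A vehicle list, 11 of 54 did, 20.4%. A reciprocal overlap of at least 50% lowered these 3 POLR3A shares to 18.9%, 13.0% and 31.6%. No whole-list share was taken with cut lists or reciprocal overlap, so the list values above do not apply to those shares. The overlap of POLR3A with PR under P4 moved with the length of the PR list, whose part in it was not otherwise tested.

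Joined over the 4 lists, the windows held 249 sites. PR under P4 alone made up 97 of them, 39.0%, against 44.2% of sites over the genome. Both PR lists without POLR3A made up 32, 12.9% against 10.5%, and 22 of these were at IGF1R. Both PR lists with POLR3A under P4 made up 12, 4.82% against 2.92%, with 7 at IGF1R, 4 at EGFR and 1 at ERBB4. All 4 lists were present at 15, 6.02% against 4.23%, with 11 at ERBB3, 2 at ERBB2 and 1 each at IGF1R and INSR. POLR3A without PR made up 33 sites under P4 alone, 13.3% against 13.2%, 18 under vehicle alone, 7.23% against 6.70%, and 5 under both, 2.01% against 1.28%.

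Of 49 other genes of these pathways, PR had a region at 44 under vehicle and 47 under P4, and POLR3A at 36 and 35. Over all protein-coding genes the shares were 74.6%, 90.5%, 68.7% and 71.9%. Windows of neighbouring genes can share regions, so the genes are not all separate, and GRB7 lies in the ERBB2 window. IGFBP2 and IGFBP5 had the same highest PR −log10 q under P4, as did IGFBP1 and IGFBP3, and INS and IGF2. PR regions were more numerous under P4 at 44 of the 49, fewer at 1 and equal at 4, where 87.2% of all genes had more and 0.762% fewer. POLR3A regions were more numerous at 23 and fewer at 11, against 51.3% and 16.2% of all genes. In lists of equal length PR was more numerous at 22 and fewer at 17, against 36.5% and 30.9% of all genes. POLR3A was more numerous at 15 and fewer at 16, against 26% and 36.2%. By role, PR under P4 had a region at 13 of 14 ligand genes, 2 of 2 related receptor genes, 17 of 18 genes of adaptors and signalling enzymes, 9 of 9 inhibitor genes and 6 of 6 genes of insulin-like growth factor binding proteins. The median PR density under P4 was 6.02 per 100 kb over the 49 genes, against 5.28 over all protein-coding genes, and it was lowest for ligands, at 2.26, and highest for binding proteins, at 11.0. The 2 genes with no PR region under either treatment were NRG1, a neuregulin that binds ERBB3 and ERBB4, and IRS4, a further adaptor. The gene with fewer was AKT2, a kinase of the insulin pathway, with 12 under vehicle and 11 under P4. These 3 are named for their values after these were seen.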

How the data were processed

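The labels list 14 ChIP-seq libraries of T47D cells, treated for 1 h with ethanol or P4. The deposited files are 4 lists of regions, 1 per antibody and treatment. Per the submitters' processing notes, cutadapt, Bowtie2, MACS2 and the build hg38 were used; their settings, the control and any pooling of replicates are not given in the sources used here. Per the layout of the deposited lists, the authors gave each region a fold enrichment, a ratio, and a −log10 q-value. The highest q-value of any region was 0.0497. The deposited lists hold no read counts, so depth is unknown, and a deeper library could lengthen a list.

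Regions on chromosomes 1 to 22 and X were assigned to a gene when they reached its RefSeq span (GRCh38.p14) or the 50 kb on either side, and 2 regions counted as shared from an overlap of 1 bp. The gene table was kept on each chromosome until start positions fell back, which left 58419 of 59098 genes and 19821 protein-coding genes. All 8 members were named, with their strongest regions by −log10 q in each list, sites in all 4 lists and regions over a promoter; for sites in all 4 lists the text gives counts and examples. Promoter windows were matched by gene identifier, for 7 of 8 members. The members, lists and alternatives were chosen with earlier results of these data known. Intervals are 95% Wilson intervals, which hold for counting error alone. Nothing was tested between treatments, because the 3 replicates of a group share 1 list. Alternatives were windows of 10 and 100 kb, −log10 q of at least 5 or 10, lists cut to equal length, summits inside the window and a reciprocal overlap of 50%. Counting a region only for its nearest protein-coding gene, leaving out IGF1R or ERBB3, and equal lengths for the pathway genes, were chosen after seeing the data. Overlap code was tested on simulated data, with equal counts in 50 of 50 runs of 3000 regions, and equalled bedtools 2.31.1 in 6 of 6 comparisons. Python 3.11.15, pandas 2.3.3, numpy 2.4.6, scipy 1.17.1 and matplotlib 3.10.9 were used.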

Additional observations from a re-analysis of the deposited data

How the results depend on the processing

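No paired analysis was possible because the replicates of a group share 1 list. The depth of the libraries is unknown, so its part in the lengths of the lists cannot be told apart from that of the treatment. Of 36 counts under other settings, 18 stayed within 1.5 times the main count, and of 40 shares, 25 stayed within the main interval. Both sets include the settings that leave out IGF1R or ERBB3. For the counts, the vehicle lists are not cut in the equal-length setting, so the vehicle counts there could not move. The PR vehicle list was cut only for the share of POLR3A vehicle regions with a PR region.

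With 10 kb on each side, POLR3A had 29 regions under vehicle and 60 under P4. At a −log10 q of at least 5, PR had 43 and 107 and POLR3A 11 and 17; POLR3A P4 regions then overlapped POLR3A vehicle at 47.1% and PR at 70.6%. At a −log10 q of at least 10, PR had 23 and 62 and POLR3A 2 and 1, and the POLR3A shares were 0% of 1 P4 region with vehicle, 0% of 2 vehicle regions with PR and 100% of 1 P4 region with PR. In lists of equal length PR had 76 and POLR3A 59 under P4, with shares of 61.8% (PR P4 with vehicle), 42.4% (POLR3A P4 with vehicle) and 33.7% (POLR3A P4 with PR). A reciprocal overlap of 50% gave 21.4% for PR P4 with vehicle, 18.9% for POLR3A P4 with vehicle, 13.0% for POLR3A vehicle with PR and 31.6% for POLR3A P4 with PR. Counting by nearest gene gave POLR3A 27 and 57. Without IGF1R, PR had 39 and 105 regions and POLR3A P4 with vehicle was 44.8%. Without ERBB3, POLR3A had 27 and 56, and its shares were 16.1% with vehicle and, for vehicle regions with PR, 11.1%. Whole-list shares were not taken at the −log10 q limits, in lists of equal length or with reciprocal overlap.

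Of 126 differences between P4 and vehicle for single genes or all 8, recomputed under other settings, 8 changed sign. POLR3A at INSR was 1 higher under P4 with 10 kb on each side and 1 higher by nearest gene. At a −log10 q of at least 10, POLR3A was −1 at ERBB3 and −1 over all 8 genes. In lists of equal length PR was −1 at EGFR and −8 at ERBB3, and POLR3A was −1 at ERBB2, where it was also −1 by nearest gene. The cause of these changes of sign was not tested.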
